A study of Mus musculus with 12 samples.

Results

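The genes of albumin and 8 other carrier and binding proteins of blood plasma, Alb, Ttr, Trf, Rbp4, Hpx, Ambp, Ahsg, Cp and Vtn, were followed in maps of chromatin contacts from young and old mouse hepatocytes. These 9 genes were taken by symbol from the gene column of the deposited networks, which named 16197 genes at either age. Of the 9, 8 were named in the young network and 7 in the old, and these 7 were named at both ages. Cp was named at neither age and Vtn in young only.

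The contacts were measured by H3K27ac Hi-ChIP, in which chromatin contacts are joined by proximity ligation and then enriched with an antibody to H3K27ac, a histone acetylation found at active enhancers and promoters. Hepatocytes came from livers of male C57BL/6 mice aged 5 months (young) and 25 months (old), with 6 libraries per age: 2 biological replicates, each in 3 batches of technical repeats. The labels give no transgene or treatment. The old mice were of the US National Institute on Aging stock while the young were not, so age and stock cannot be told apart. The authors deposited 1 network per age with no replicate named, made of nodes that are 5 kb bins grouped into sets that the authors call cliques, each with the genes whose promoters it holds. The comparison of the networks asks how the regulatory neighbourhood of each gene differed between young and old hepatocytes. With 1 network per age there was no spread between animals, no p-value could be had, and the values describe these 2 networks.

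Most of these proteins are made by the hepatocyte and secreted into blood, where they carry ligands that dissolve poorly or are harmful when free. Albumin binds fatty acids, bilirubin and many drugs. Transthyretin (Ttr) carries thyroxine and binds the retinol carrier Rbp4. Transferrin (Trf) carries iron, ceruloplasmin (Cp) carries copper and oxidises iron, and hemopexin (Hpx) binds free haem. Ambp encodes a precursor that is cut into the haem-binding lipocalin alpha-1-microglobulin and the protease inhibitor bikunin. Fetuin-A (Ahsg) binds calcium phosphate and limits calcification, and vitronectin (Vtn) is an adhesion protein that binds the inhibitor PAI-1. Liver-specific transcription of such genes is known to depend on proximal promoters and on enhancers bound by HNF1, HNF4, C/EBP and forkhead factors.

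Whether a gene was named by a clique followed the bin that holds its transcription start. Among protein-coding genes with 1 RefSeq start, 94.0% of those named in young and 91.5% of those named in old had the start in the clique that named them. Only 3.36% and 3.44% of genes with a start outside all nodes were named. Promoter windows of 300 bases, from 250 before to 50 after the start, were found in the RefSeq table (GRCm38.p6, the assembly of mm10) for 7 of the 9 genes. Of the 6 with the start bin in the young network, 5 had it in the old network too (Alb, Ambp, Hpx, Ahsg and Rbp4), compared with 69.7% of 5537 protein-coding genes. The 4 windows below show the 3 cases: start bin in both networks (Alb and Ambp, the genes with the largest old cliques), in young only (Vtn) and in neither (Cp, the more downstream of 2 starts). They are read 5′ to 3′ on the strand of the gene, and capitals mark matches to the motifs given after them.
Alb, plus strand, chr5:90460620-90460919: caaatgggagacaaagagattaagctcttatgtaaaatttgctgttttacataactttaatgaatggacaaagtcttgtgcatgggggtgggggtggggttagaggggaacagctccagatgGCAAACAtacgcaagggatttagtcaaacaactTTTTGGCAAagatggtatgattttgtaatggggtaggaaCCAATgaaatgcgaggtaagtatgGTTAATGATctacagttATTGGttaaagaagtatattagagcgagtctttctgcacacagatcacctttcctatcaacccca
Ambp, minus strand, chr4:63154123-63154422: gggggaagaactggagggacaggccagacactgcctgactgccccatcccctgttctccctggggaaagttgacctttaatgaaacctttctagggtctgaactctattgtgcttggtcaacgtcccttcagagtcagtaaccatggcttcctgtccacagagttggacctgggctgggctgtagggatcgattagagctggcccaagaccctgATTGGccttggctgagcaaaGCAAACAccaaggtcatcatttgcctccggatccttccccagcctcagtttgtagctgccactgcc
Vtn, plus strand, chr11:78498870-78499169: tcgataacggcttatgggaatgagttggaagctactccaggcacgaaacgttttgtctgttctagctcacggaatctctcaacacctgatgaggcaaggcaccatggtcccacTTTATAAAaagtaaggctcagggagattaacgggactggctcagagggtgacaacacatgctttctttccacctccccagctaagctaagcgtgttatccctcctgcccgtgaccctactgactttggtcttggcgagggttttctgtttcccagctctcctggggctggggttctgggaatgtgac
Cp, plus strand, chr3:19956999-19957298: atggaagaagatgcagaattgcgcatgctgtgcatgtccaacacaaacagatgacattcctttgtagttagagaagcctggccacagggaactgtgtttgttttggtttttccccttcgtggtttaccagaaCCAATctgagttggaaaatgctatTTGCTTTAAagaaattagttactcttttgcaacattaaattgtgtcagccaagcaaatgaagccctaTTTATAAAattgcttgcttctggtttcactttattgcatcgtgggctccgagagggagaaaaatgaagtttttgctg

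The motifs were searched on both strands. The HNF1 core GTTAATNAT, found in 0.801% of 32851 windows, was matched in the Alb window from -32 to -24, counted from the start site at 0. The Alb window also held CCAAT from -56 to -52 (plus strand) and from -15 to -11 (minus strand), a C/EBP core TTGCNNNAA from -95 to -87 and a forkhead core TGTTTGC from -128 to -122, both on the minus strand. CCAAT was present in 37.4% of all windows, TTGCNNNAA in 9.56% and TGTTTGC in 5.07%. The Ambp window held CCAAT from -36 to -32 and TGTTTGC from -16 to -10, both on the minus strand. The Cp window held TATAAA from -25 to -20, overlapping a reverse match from -27 to -22, with CCAAT from -118 to -114 and TTGCNNNAA from -94 to -86. In the Vtn window the only matches were TATAAA from -135 to -130 and its overlapping reverse match from -137 to -132. TATAAA was present in 13.6% of windows. None of the 4 windows matched the forkhead core TGTTTAC, the HNF4 core CAAAGTCCA or the AP-1 core TGANTCA, present in 3.65%, 0.475% and 7.81% of windows. The window of the more upstream Cp start, not printed, held the HNF1 core from -197 to -189, the C/EBP core from -118 to -110 and the AP-1 core from -177 to -171. Of the other members with a window, Ahsg had the CCAAT box, the forkhead core found in Alb and the C/EBP core, and Hpx had the CCAAT box. The CCAAT box and the other forkhead core were in 1 of the 2 Rbp4 windows, and the TATA box and the AP-1 core in the other. These matches describe letters in a window and do not show binding.

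In nodes, the clique was smaller in old hepatocytes for 6 of the 7 genes named at both ages (Alb, Ttr, Trf, Rbp4, Hpx and Ahsg) and larger for Ambp; relative to the mean clique size of each age, Alb and Ahsg turned to slightly larger in old and Trf to nearly equal, and relative to the mean over listed genes Trf turned as well (1.04). A smaller old clique was also seen for 82.5% of the 9836 gene names listed at both ages, and a larger one for 12.5%, so the count for the carrier genes was near that of the networks as a whole. The median carrier gene had 31 nodes in young and 21 in old, compared with 31 and 17 over all these gene names. The median log2 ratio of old to young size was -0.64 for the 7 genes and -0.66 over all. A clique at least 2 times smaller in old was found for 2 of the 7, Rbp4 and Hpx, against a background of 37.6%. With genes that share both their young and their old clique counted once, this background was 48.4%. Relative to the network mean neither Rbp4 nor Hpx reached 2 times (ratios of 0.611 and 0.747), so 0 of the 7 did, against 21.1% of gene names. None of the 7 was at least 2 times larger, against 4.05%. Vtn was 1 of the 8 genes named in young that no old clique named, against 32.3% of gene names.

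**Figure D1:**
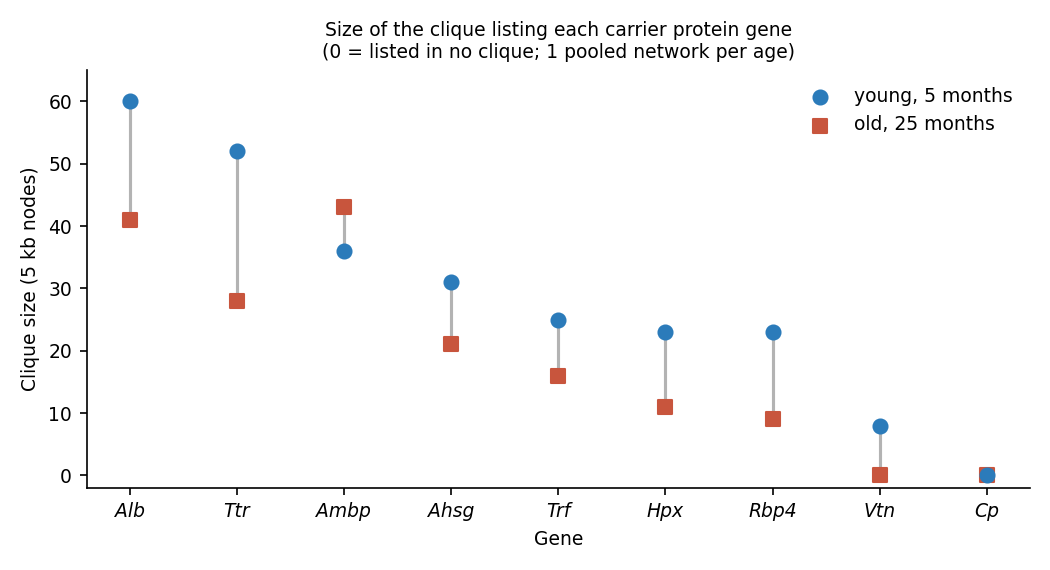
Number of 5 kb nodes (y axis) in the clique that names each gene (x axis), young as blue circles and old as red squares, 1 pooled network per age and so no error bar. The old value lies below the young for every named gene but Ambp (36 in young, 43 in old), and Cp lies at 0 at both ages; relative to the network mean, the order of Alb and Ahsg turns, and relative to the mean over listed genes that of Trf too.

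The old network as a whole was smaller, with 40304 nodes against 56928 (29.2% fewer) and a mean clique of 6.75 nodes against 10.5. Of 18 other hepatocyte marker genes 17 were named in young and 16 in old. Of 33 markers of Kupffer, endothelial, stellate, bile duct and lymphoid cells 6 and 2 were named, with none of the 7 Kupffer cell markers at either age. Over protein-coding genes with 1 RefSeq start, the start lay in a node for 5537 and outside for 9194 in young. In old these were 4440 and 10291. By gene span, cliques also reached some markers that none named, while most stayed at 0. Among those reached were endothelial Stab2 (13 nodes in young, 10 in old), lymphoid Cd79a (15 and 8) and Csf1r of the Kupffer list (0 and 2). The part of those other cells in the results was not tested. The read depth of either network is unknown, and its part in the smaller old cliques was not tested. In such bulk material, fewer cells of a type and less signal per cell cannot be told apart.

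Albumin stood in the largest clique of the 9 genes in young and the second largest in old. Alb (chromosome 5, 90460870 to 90476602) was named by a young clique of 60 nodes and an old clique of 41, a ratio of 0.683, or 1.07 with each size taken relative to its network's mean clique. The young clique exceeded those of 81.6% of gene names in its network, and the old clique those of 85.1%. The 2 cliques shared 36 nodes, and the other 5 old nodes were in no young clique. Of the 60 young nodes 37 were present in old (61.7%, 95% Wilson interval 49.0 to 72.9), 36 of them in the old Alb clique and 1 in a clique of 2 nodes that named no gene.

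The nodes absent from old lay mainly far from Alb and, in part, inside it. Between 25 and 100 kb from the gene 18 of 20 young nodes were present in old (90.0%, 69.9 to 97.2), compared with 9 of 26 beyond 100 kb (34.6%, 19.4 to 53.8). Over 5268 protein-coding genes with young cliques of 8 to 60 nodes, the range of the carrier genes, these shares were 65.4% and 60.8%. Of the 5 bins in or within 2500 bp of Alb, all were young nodes, and the old network kept the start bin (90460001 to 90465000) and the bin before it. The 3 bins over the rest of the gene were absent from old. The albumin family genes Afp (alpha-fetoprotein, the fetal counterpart) and Afm (afamin, a vitamin E-binding protein) shared the clique at both ages. So did Albfm1, Ankrd17 and Cox18. Bins in or near Afp numbered 6 in young and 5 in old, and those in or near Afm 4 at both ages. The old clique also named Rassf6, which no young clique named.

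**Figure D2:**
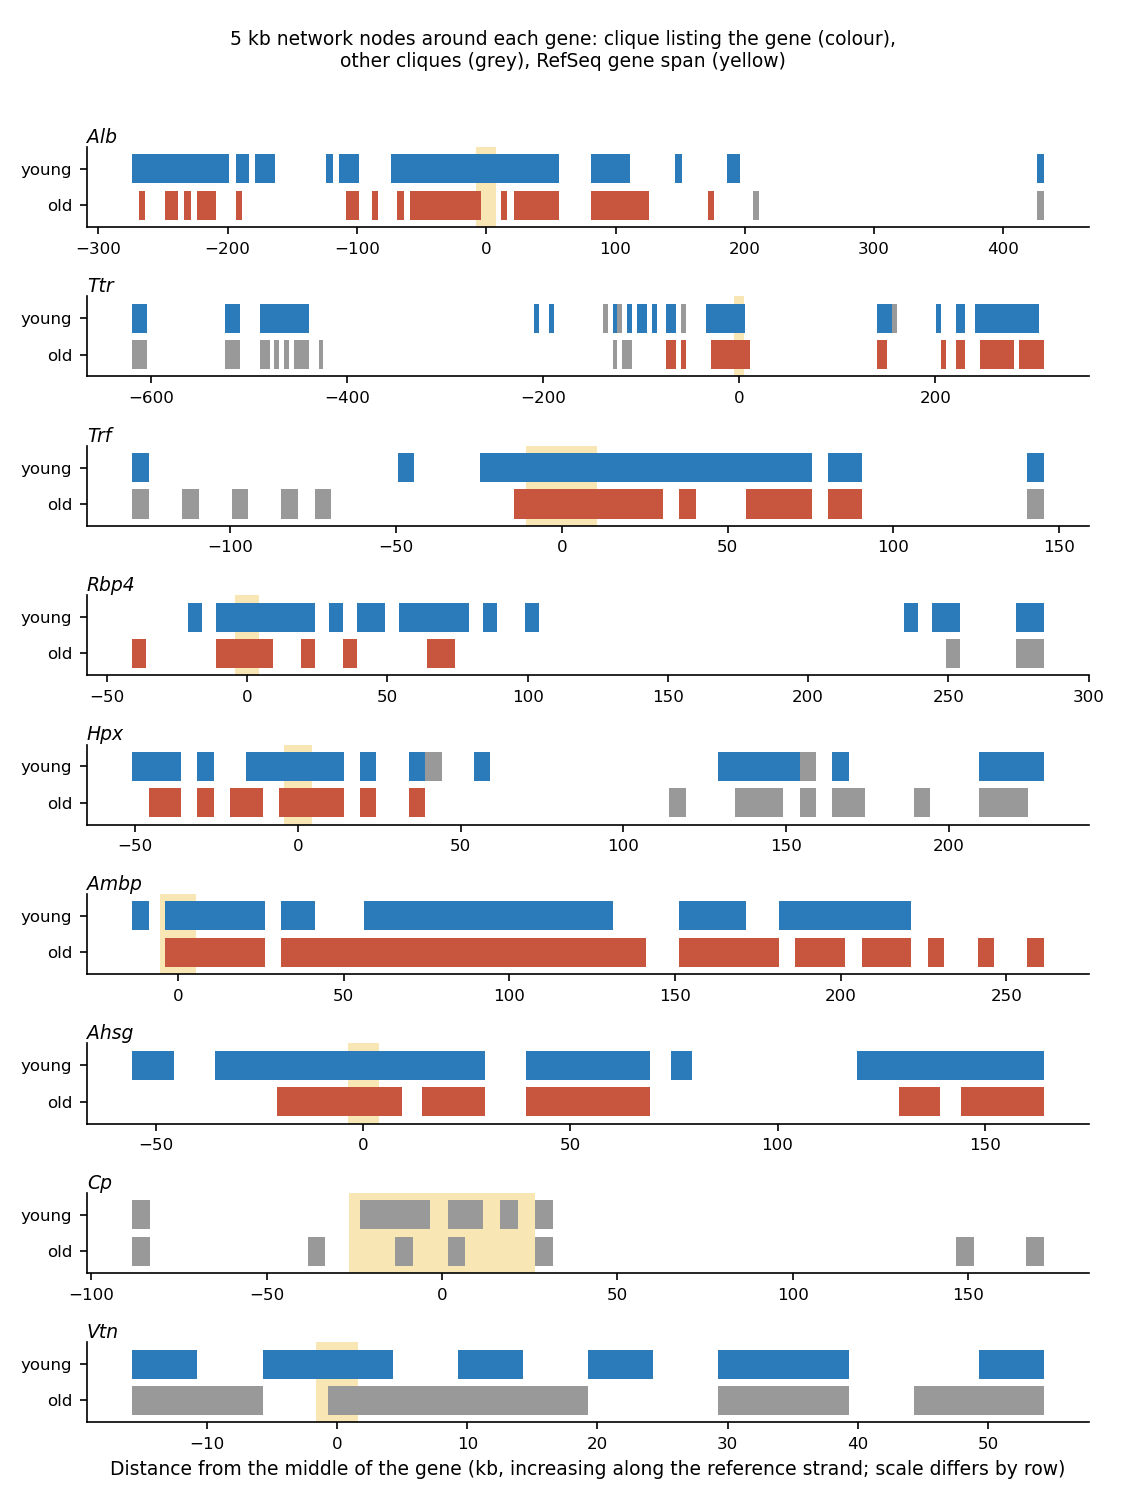
Nodes around each of the 9 genes, with distance from the middle of the gene in kb on the x axis (a different scale in each row) and the young network above the old. Coloured blocks belong to the clique that names the gene, grey blocks to other cliques, and yellow marks the gene; grey blocks in the old rows of Ttr and Hpx show former clique nodes in separate old cliques, and the gap in the old row of Alb lies over the gene.

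The carriers of thyroid hormone and retinol, which circulate as 1 complex, lay in young cliques whose nodes the old network spread over several cliques. This also held for Alb, Trf, Hpx and Vtn. Of young cliques of like size, 54.7% had nodes in 2 or more old cliques. Ttr (chromosome 18, 20664209 to 20674326) had 52 nodes over 925 kb in young and 28 nodes over 385 kb in old, a ratio of 0.538 (0.841 relative to the network mean). Of the 52 young nodes 39 were present in old (75.0%, 61.8 to 84.8), with 24 in the old Ttr clique. Another 14 were in an old clique of 16 nodes that named the desmosomal cadherin genes Dsc2 and Dsg2, both named with Ttr in young. The remaining 1 was in a clique of 2. All 3 young bins in or near Ttr were present in old, and the bin just past the higher-coordinate end of the gene was a node in old only. Trappc8 and Rnf125 were named with Ttr at both ages.

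Rbp4 (chromosome 19, 38116620 to 38125321) had the lowest ratio of old to young size of the 7 genes, 0.391, with 23 nodes in young and 9 in old (0.611 relative to the network mean). It also had the smallest share of young nodes present in old, 10 of 23 (43.5%, 25.6 to 63.2). Of these, 7 were in the old Rbp4 clique and 3 made up the whole of a clique that named Slc35g1. The bins of the gene itself were kept: all 4 in or within 2500 bp were nodes at both ages, both RefSeq starts among them. Within 25 kb the nodes went from 9 to 5. The young clique also named Pde6c, Fra10ac1 and Slc35g1, while the old clique named Rbp4 alone, so no gene shared its clique at both ages.

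Genes of metal and haem binding differed from each other. Trf (chromosome 9, 103208876 to 103230286) had a clique of 25 nodes in young and of 16 in old, a ratio of 0.640 (2.37 times the network mean at both ages). Every node of the old clique was also a node of the young Trf clique. All 6 bins in or near Trf were nodes at both ages. Of the 9 young nodes that left the clique 7 were absent from old, and the other two lay in cliques of 2 and 3 nodes. The old span began 3.88 kb before the gene on the reference strand, where the young span began 119 kb before it, and Srprb, the neighbour on that side, was named in no old clique. Topbp1 and 1300017J02Rik were named with Trf at both ages.

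Hpx (chromosome 7, 105591611 to 105600116) went from a 23-node clique in young to an 11-node one in old, a ratio of 0.478 (0.747 relative to the network mean). Its young nodes were mostly still present, 17 of 23 (73.9%, 53.5 to 87.5), but in 2 old cliques of 11 nodes each. The Hpx clique held 10 of them, with Trim3, Apbb1 and the sphingomyelinase gene Smpd1 named as before. The other clique held 7, from 105710001 to 105820000, and named Ilk, Taf10, Rrp8 and Mrpl17, which had been named with Hpx in young. Near the gene 3 of the 4 young bins were old nodes, the start bin among them.

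Ambp (chromosome 4, 63143275 to 63154172) was the gene with the larger old clique, 43 nodes against 36 in young, a ratio of 1.19 (1.87 relative to the network mean). The young clique exceeded those of 60.9% of gene names, and the old clique those of 85.7%. Of its young nodes 33 of 36 were present in old (91.7%, 78.2 to 97.1), all in the old Ambp clique. Among the 10 nodes found only in old, 7 lay within the young span and 3 beyond its far end. Nodes filled 76.6% of the bins in the young span and 81.1% in the old, the densest of the 7 genes at both ages. The same 8 genes were named at both ages: Ambp, Kif12, Col27a1, the microRNA gene Mir455, Gm11212 and the orosomucoid genes Orm1, Orm2 and Orm3, which encode acute phase lipocalins. The Orm genes lie 190 to 208 kb from Ambp and are close paralogs, so the assignment of contacts among them may be uncertain, which was not tested.

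Cp (chromosome 3, 19956933 to 20009750) had nodes inside the gene but none at its start. The bin from 19955001 to 19960000, which holds both RefSeq starts, was in neither network. Of 13 bins in or within 2500 bp of the gene 8 were nodes in young and 3 in old. The young nodes belonged to cliques of 3 or 4 nodes and the old to cliques of 2 or 3, and none of these named Cp. All 3 old bins were among the 8 young ones.

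Fetuin-A kept its gene cluster together. Ahsg (chromosome 16, 22892015 to 22899451) had a clique of 31 nodes in young and of 21 in old, a ratio of 0.677 (1.06 relative to the network mean). All 21 old nodes had been in the young clique, and the 10 young nodes that left it were absent from old. The 4 bins in or near Ahsg were nodes at both ages. The cystatin superfamily genes of this locus, Fetub (fetuin-B), Hrg (histidine-rich glycoprotein), Kng1 and Kng2 (kininogens), were named with Ahsg at both ages.

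Vtn (chromosome 11, 78499120 to 78502325) had the smallest young clique of the 8 genes named there, 8 nodes over 70 kb. Of these nodes 6 were present in old (75.0%, 40.9 to 92.9), spread over cliques of 7, 2 and 2 nodes. The start bin (78495001 to 78500000) was absent from old, while the next bin, which holds the rest of the gene, lay in the old clique of 7 nodes. That clique named the neighbours Sebox, Tmem199, Poldip2, Tnfaip1 and Ift20, which had been named with Vtn in young. By bins in or near the gene, Vtn therefore stood at 8 nodes in young and 7 in old.

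**Figure D3:**
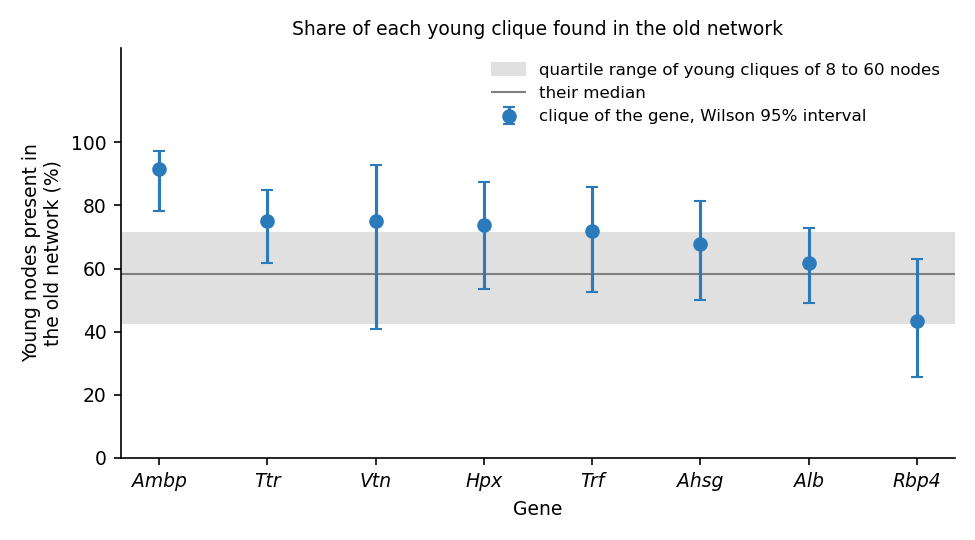
Percentage of the nodes of each young clique that were nodes of the old network in any clique (y axis), for the 8 genes named in young (x axis), with Wilson 95% intervals that cover counting error only. The grey band (42.9% to 71.4%) runs between the quartiles of the 1652 young cliques of 8 to 60 nodes and the line (58.3%) their median. The value lies above the line for 7 of the 8 genes, highest for Ambp (91.7%), and below it for Rbp4 (43.5%). The line depends on the sizes taken: it would be 40% over all young cliques, and only Vtn had fewer than 23 nodes. Counted by node over protein-coding genes of like size, the shares by distance were 60.8% to 66.4%, a range that includes Alb (61.7%).

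The share of young nodes present in old ran from 43.5% for Rbp4 to 91.7% for Ambp, and was 55.6% over all young nodes. The shares of Ambp, Ttr (75.0%), Vtn (75.0%), Hpx (73.9%) and Trf (72.0%) lay above the upper quartile of young cliques of like size (71.4%). Those of Ahsg, Alb and Rbp4 lay between the quartiles (42.9% to 71.4%). The Wilson intervals cover counting error within 1 clique, not the spread between cliques, so no gene can be singled out by them. Nodes of 6 of the 8 young cliques were spread over 2 or more old cliques, and those of Ambp and Ahsg were in 1. Of the 1652 cliques of like size 54.7% were in 2 or more. Pooled over the 8 genes, 57 of 76 young nodes within 25 kb of the gene were present in old (75.0%, 64.2 to 83.4), 52 of 74 between 25 and 100 kb (70.3%, 59.1 to 79.5) and 72 of 108 beyond (66.7%, 57.3 to 74.8). Over the 5268 protein-coding genes with young cliques of like size, the shares fell in the same order, 66.4%, 65.4% and 60.8%. Whether the share differed with distance was not tested, because neighbouring nodes are not independent and the pool joins genes with opposite directions. The share beyond 100 kb was below that between 25 and 100 kb for Alb (34.6% against 90%) and Ambp. It was above for Ttr (76.9% against 40%), Trf, Rbp4, Hpx and Ahsg. The young Vtn clique had no node beyond 100 kb.

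**Figure D4:**
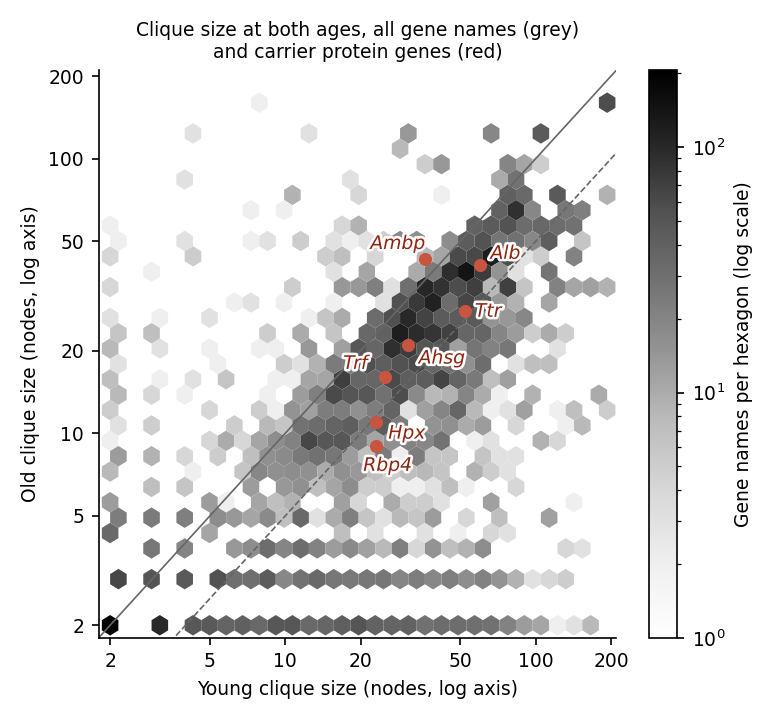
Clique size in young (x axis) and old (y axis), both on log axes in nodes, for the 9836 gene names listed at both ages as grey hexagons shaded by their number, with the 7 carrier genes in red. The solid line marks equal sizes and the dashed line an old clique 2 times smaller than the young; Ambp lies above the solid line, Rbp4 and Hpx below the dashed line, and the other four between the lines, which are drawn for unscaled sizes (scaling turns Alb, Ahsg and Trf as given in the text).

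Among the 7 genes the order of young sizes was Alb (60), Ttr (52), Ambp (36), Ahsg (31), Trf (25) and then Rbp4 and Hpx (23 each). In old it was Ambp (43), Alb (41), Ttr (28), Ahsg (21), Trf (16), Hpx (11) and Rbp4 (9). No spread is known for either order, so neighbours in it cannot be said to differ.

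Partner and related genes were taken from lists drawn up by function. Of 87 genes in lists of carriers and partners outside the 9, 60 were named at either age, of which 50 had the smaller value in old, 8 the larger and 2 an equal one; with sizes over the network mean these counts became 31 smaller and 29 larger. For the 51 named at both ages, 42 were smaller and 7 larger, beside 82.5% and 12.5% of all gene names, and the median log2 ratio was -0.56 (-0.66 over all). Genes that share a clique are each counted, so these are not separate cliques. Afp and Afm share that of Alb, Orm1, Orm2 and Orm3 that of Ambp, and Fetub, Hrg, Kng1 and Kng2 that of Ahsg. The counts by list that follow include genes named at 1 age and are to be read beside these shares; nothing particular to a list is drawn from them. In the albumin family list, which leaves out Albfm1, all 3 named genes were smaller in old. Relative to the mean all 3 were larger: Afp and Afm in the Alb clique, and Gc, described next. Gc (vitamin D-binding protein), elsewhere on chromosome 5, had cliques of 12 and 10 nodes. In iron handling 10 of 12 named genes were smaller in old and 2 larger (7 and 5 relative to the mean). The lowest ratios of old to young size in this list were those of Tmprss6, a protease that lowers hepcidin, with 40 and 10 nodes, and the metal transporter genes Slc11a2 with 45 and 13 and Slc39a14 with 47 and 16. The 2 larger were the transferrin receptor gene Tfrc with 6 and 14 nodes and the ferritin light chain gene Ftl1 with 72 and 74, named here after their values were seen.

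In haem and haemoglobin scavenging 3 of 4 named genes were smaller in old and 1, Blvrb, had 8 nodes at both ages (relative to the mean, 2 smaller and 2 larger). Hp, encoding the haemoglobin binder haptoglobin, had 41 and 9 nodes, the hemopexin receptor gene Lrp1 159 and 69, and the haem oxygenase gene Hmox1 14 and 10. In retinol and thyroid hormone carriage 6 of 8 named genes were smaller, 1 equal and 1 larger (6 smaller and 2 larger relative to the mean). The thyroid hormone receptor gene Thra (72 nodes), Stra6l (36) and the deiodinase gene Dio1 (18) were named in young and by no old clique. Old cliques of 52, 28 and 3 nodes reached the spans of these 3 genes.

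Among lipocalins and other small-ligand carriers 5 of 9 named genes were smaller in old and 4 larger (2 and 7 relative to the mean). The 4 larger were the 3 Orm genes of the Ambp clique and Apom, an apolipoprotein of the lipocalin family named by an old clique of 20 nodes. Apom was named by none in young, and by span its direction turned, since the largest clique reaching the gene had 69 nodes in young but 46 in old. The bikunin partner genes Itih1, Itih3 and Itih4, heavy chains of inter-alpha-trypsin inhibitor in 1 cluster, had 41 and 17 nodes. All 5 named genes of that list were smaller in old, also relative to the mean, but they are not 5 separate loci. Itih2 (23 and 12 nodes) and Itih5 (23 nodes in young) lie close together on chromosome 2. Itih5 had no old node in its span. Ambp itself had the opposite order. In copper handling 7 of 8 named genes were smaller in old and 1, the copper pump gene Atp7b, larger with 10 and 12 nodes (4 and 4 relative to the mean). Sod1 (14 nodes) and the metallothionein gene Mt2 (7) were named in young only, and their spans were reached in old by cliques of 3 and 2 nodes. Vitronectin receptor and partner genes were smaller in all 5 named (3 of 5 relative to the mean), with Itgb5 at 54 and 23 nodes, Itgav at 10 and 4 and Itgb1 at 12 and 5. In the fetuin list all 7 named genes were smaller in old (2 smaller and 5 larger relative to the mean). The 4 genes of the Ahsg clique had 31 and 21 nodes, and Mgp (4 nodes), a calcification inhibitor gene, and Cst3 (3) were named in young only.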

How the data were processed

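The data are 12 H3K27ac Hi-ChIP libraries, 6 per age. The 4 deposited tables give, per the file headers, node positions (mm10) and, for each clique, a count of nodes, gene names and node names. Bowtie2 and HiC-Pro, with the builds mm10 and GRCm38, are named in the submitters' processing notes. The sources used here do not give the loop caller, clique method, promoter window or pooling of libraries, and read depth is unknown. Each network was taken as 1 pooled sample.

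Clique size is the deposited count of nodes of the largest clique naming a gene, and 0 where none does. Nodes were matched between ages as the same 5 kb bin (minimum overlap 1 bp). A call means a ratio of at least 2. Gene spans and promoters came from RefSeq (GRCm38.p6); symbols matched for all 9 genes. Bins in or near a gene overlap its span plus 2500 bp. Shares carry Wilson 95% intervals, which cover counting error only and treat nodes as independent, which neighbouring nodes are not. No test was run across genes.

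Named genes are the 9, up to 6 genes sharing the clique of a member at both ages (nearest first, protein-coding before others), related genes sharing such a clique, and up to 3 per list with the largest absolute log2((old + 1)/(young + 1)). Other genes, such as those named with a member at 1 age only, were chosen after their values were seen. Members and lists were chosen with earlier results of these data known. Matching was tested on simulated data. Python 3.11.15, pandas 2.3.3 and scipy 1.17.1 were used.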

Additional observations from a re-analysis of the deposited data

How the results depend on the processing

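Assigning genes by bins in the gene span left every old-to-young ratio of the 7 genes as it was, gave 8 smaller and 1 larger of the 9 (7 and 1 as named, Vtn counted as smaller) because Cp then had a value, and gave 61 smaller and 12 larger related genes. Requiring 3 or more nodes changed no count of smaller or larger genes. No member was named by several cliques of 1 age.

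Scaling did change directions. With sizes divided by the mean clique of the age, 5 members were smaller and 3 larger in old, and with the mean over listed genes 4 were smaller and 4 larger. The ratios that turned were Alb at 1.07 and 1.11, Ahsg at 1.06 and 1.10, and Trf at 1.04 with the second divisor only. Related genes were then 31 smaller and 29 larger with the first divisor. The background of genes at least 2 times smaller in old was 21.1% after division by the mean clique size. That of genes at least 2 times larger was then 7.74%. With 1 gene per pair of cliques instead, the backgrounds were 48.4% smaller and 6.67% larger. Counting the same or the next bin as a match raised the share of young nodes present in old to between 73.9% (Rbp4) and 100% (Vtn). Counting only the single old clique with most of the nodes lowered it in the 6 genes whose young nodes lay in several old cliques: to 46.2% for Ttr, 43.5% for Hpx, 50.0% for Vtn, 30.4% for Rbp4, 64.0% for Trf and, least, by 1 node for Alb. Leaving out a replicate was not possible with 1 network per age. No paired analysis was possible because each age is 1 network with no replicate named. The number of nodes per clique, 8 to 60 in young, limits the precision of every share, and sequencing depth is unknown.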
